A study of Homo sapiens with 6 samples.

Results

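The 10 genes described here are receptors, ligands and target genes of the Notch pathway that were measured in 21NT breast cells with and without forced *TBX3* expression. They were taken by gene symbol, all 10 were found among the 20824 genes of the deposited table, and they comprise the receptors *NOTCH1*, *NOTCH2* and *NOTCH3*, the ligands *JAG1*, *JAG2* and *DLL1*, and the targets *HES1*, *HEY1*, *HEY2* and *HEYL*. 21NT is an established breast cell line used as a model of ductal carcinoma in situ, and the cells were stably transfected with the pcDNA3.1 plasmid, either empty (EV) or carrying TBX3iso1 or TBX3iso2, the isoforms of the transcriptional repressor *TBX3* of which TBX3iso2 holds an extra stretch in its DNA-binding domain. All 3 lines were grown in αMEM with insulin, EGF, hydrocortisone, serum and the selection agent G418, each is a pool of resistant cells, and none received any other treatment. RNA of each line was sequenced in 2 libraries, 6 in all, with between 43176600 and 54512400 alignments per library. The sources do not say whether the 2 libraries of a line came from separate cultures, so the p-values may measure technical spread only.

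In the Notch pathway a receptor on one cell is bound by a Jagged or Delta-like ligand on its neighbour. Binding lets ADAM proteases and then the gamma-secretase complex cut the receptor, and the freed intracellular part enters the nucleus, where with the DNA-binding protein *RBPJ* and a Mastermind-like coactivator it switches on HES and HEY genes, which themselves encode repressors. In the mammary gland the pathway is known for its part in the choice between luminal and basal fates, and it is often altered in breast cancer.

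Levels are given as RPKM, reads scaled by transcript length and by library alignments, so that genes can be compared per length. Fold changes are differences of log2(RPKM + 0.1) from limma, fitted to the 12805 genes whose mean over the 6 libraries reached 0.5 RPKM, and they understate the change of low genes. The fit does not pair the replicates, except where a replicate block is named. A gene is called here at a Benjamini-Hochberg adjusted p under 0.05 over all genes tested and a fold change over 1.5. *HEY2* and *HEYL* fell below the filter, so 8 of the 10 genes were tested.

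*TBX3* itself served as the check of the labels, of EV against the isoform lines only, since values per gene do not tell the isoforms apart. Its level was 8.52 and 8.24 RPKM in EV, 13.1 and 11.4 RPKM with TBX3iso1 and 17.5 and 15.5 RPKM with TBX3iso2, and the 3 lines did not overlap. The log2 fold change was 0.54 ± 0.10 with TBX3iso1 (limma, adjusted p = 0.00378), short of 1.5-fold and not called. With TBX3iso2 it was 0.97 ± 0.10 (adjusted p = 0.000257) and called. *TBX3* was thus higher with TBX3iso2, so isoform and *TBX3* level cannot be told apart in comparisons between the isoforms. The 7 epithelial markers summed to between 2386 and 3159 RPKM in every library, but not all were level: *CDH1* lay at 148 and 142 RPKM in EV and between 84.4 and 111 RPKM in the isoform lines, *KRT19* at 697 and 662 RPKM against 387 to 481 RPKM, and *ESRP1* at 44 and 41.9 RPKM against 27.1 to 39.1 RPKM. *EPCAM*, *KRT7* and *KRT18* lay above EV in both TBX3iso2 libraries. Of the 5 endothelial markers, *PECAM1* was the only one whose mean reached 0.5 RPKM, at 7.12 and 7.46 RPKM in EV against 1.14 to 1.37 RPKM in the isoform lines. The 5 fibroblast markers other than *COL1A1* were each at or under 0.524 RPKM in every library and *PTPRC* and *CD3E* each at or under 0.0299 RPKM, while *CD14*, which also differed between lines, lay at 10.7 and 9.44 RPKM in EV and between 2.22 and 2.6 RPKM otherwise. *COL1A1* lay at 4.16 and 4.44 RPKM in EV and between 6.86 and 7.84 RPKM in the isoform lines, and *CD68* at 44.1 and 43.2 RPKM in EV and between 34 and 34.3 RPKM in the isoform lines. The part of these marker differences in the Notch results was not tested.

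The 250 bases before the transcription start are shown for 4 genes, since the table of RefSeq promoters (GRCh38.p14) held 8 of the 10 genes and each printed window matched GRCh37 at a single place. *HES1* and *HEYL* are shown because both hold the *RBPJ* core motif TGGGAA, in capitals on either strand, although *HES1* was among the best expressed of the 10 genes and *HEYL* was close to 0. The *HES1* window is chr3:193853687-193853936 on the plus strand and the *HEYL* window chr1:40105316-40105565 on the minus strand.
HES1: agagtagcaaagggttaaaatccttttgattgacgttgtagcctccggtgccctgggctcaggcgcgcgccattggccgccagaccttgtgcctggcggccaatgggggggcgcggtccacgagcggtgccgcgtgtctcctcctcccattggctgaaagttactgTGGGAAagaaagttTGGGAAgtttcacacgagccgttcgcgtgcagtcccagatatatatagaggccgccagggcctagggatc
HEYL: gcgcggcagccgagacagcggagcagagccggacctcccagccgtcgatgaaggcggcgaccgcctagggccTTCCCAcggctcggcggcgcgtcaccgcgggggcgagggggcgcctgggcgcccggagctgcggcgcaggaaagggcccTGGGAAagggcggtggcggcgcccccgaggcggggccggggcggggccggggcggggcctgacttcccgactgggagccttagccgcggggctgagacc
*NOTCH1* and *NOTCH3* are shown because they were lower with both isoforms, with the GC box GGGCGG in capitals. The *NOTCH1* window is chr9:139440501-139440750 and the *NOTCH3* window chr19:15311807-15312056, both on the minus strand.
NOTCH1: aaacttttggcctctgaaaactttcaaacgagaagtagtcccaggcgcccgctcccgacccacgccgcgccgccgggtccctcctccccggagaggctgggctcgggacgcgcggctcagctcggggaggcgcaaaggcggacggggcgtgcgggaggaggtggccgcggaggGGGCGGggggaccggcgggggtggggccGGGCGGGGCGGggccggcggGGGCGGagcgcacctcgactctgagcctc
NOTCH3: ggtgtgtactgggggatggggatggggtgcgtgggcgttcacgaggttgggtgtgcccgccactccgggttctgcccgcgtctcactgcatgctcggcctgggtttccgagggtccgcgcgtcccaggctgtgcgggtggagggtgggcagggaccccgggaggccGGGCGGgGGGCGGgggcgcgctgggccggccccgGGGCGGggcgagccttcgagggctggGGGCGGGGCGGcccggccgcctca
The *RBPJ* core was present 2 times in the windows of *HES1* and *HEYL* and 1 time in that of *HEY2*, and it was found in none of the windows of *NOTCH1*, *NOTCH2*, *NOTCH3*, *JAG1* and *JAG2*. Of all 35116 RefSeq promoters, 20.8% held it in a window of the same length. The GC box was present in 7 of the 8 windows, 4 times before *NOTCH1* and 5 times before *NOTCH3* including overlapping copies, 3 times before *HEY2* and *HEYL*, 2 times before *JAG1* and *JAG2* and 1 time before *NOTCH2*, and 42.6% of all promoters held it. These 7 windows were rich in G and C, from 68.4% to 81.6%, where the median of all promoters was 58%. The *HES1* window, without the box, was at 59.2%. The part of base content in the GC box matches was not tested. The T-box half-site GGTGTGA, found in 2.76% of promoters, occurred in the *JAG2* window only, and GGTGTCA, found in 2.62%, in none of the 8. Motifs were searched on both strands, and a match is a description of the letters and not of binding.

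In EV cells *NOTCH2* was the most abundant of the 10 transcripts at 18.6 ± 1 RPKM (SD, n = 2), followed by *HES1* at 14.6 ± 0.478 RPKM. *JAG1* at 5.92 ± 0.27 RPKM and *DLL1* at 5.78 ± 0.503 RPKM came next, and their libraries overlapped. *NOTCH1* followed at 4.64 ± 0.499 RPKM, *JAG2* at 3.49 ± 0.477 RPKM, *NOTCH3* at 2.6 ± 0.261 RPKM and *HEY1* at 2 ± 0.286 RPKM, each without overlap with its neighbours in this order. *HEY2* was listed between 0.0429 and 0.0761 RPKM and *HEYL* at 0.0055 and 0.007 RPKM in EV. With both isoforms *NOTCH3* passed below *HEY1* in mean level, and with TBX3iso1 *HES1* reached 17.7 ± 0.744 RPKM, within the range of *NOTCH2* at 16.9 ± 3.63 RPKM.

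**Figure D1:**
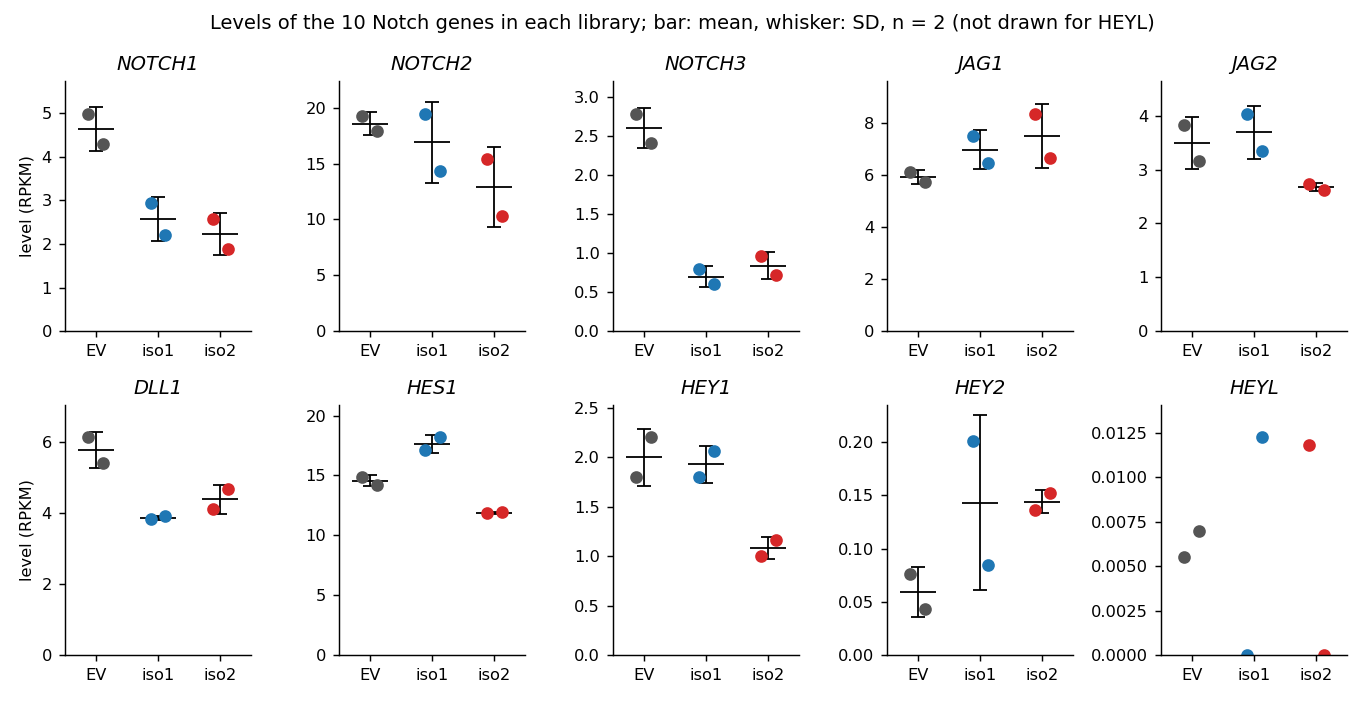
Levels in RPKM (y axis, starting at 0 and scaled for each gene) of the 10 Notch genes in the EV, TBX3iso1 and TBX3iso2 lines; each point is 1 library, the bar is the mean and the whisker the SD of 2 libraries, drawn for every gene but *HEYL*. *NOTCH1* and *NOTCH3* lie below EV in all 4 isoform libraries, and *HEY1* is low in both TBX3iso2 libraries and at the EV level in both TBX3iso1 libraries.

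Of the 8 tested genes, 2 were called with TBX3iso1 against EV, both lower, where 21.5% of all tested genes were called, 7.46% higher and 14.1% lower. With TBX3iso2 against EV 3 of the 8 were called, all lower, where 21.2% of all tested genes were called, 8.94% higher and 12.3% lower. Between the isoforms 1 of the 8 was called, lower with TBX3iso2, where 6.29% were called, 3.47% higher and 2.82% lower. The median log2 fold change of the 8 genes was -0.10, -0.47 and -0.30 in these comparisons, and over all tested genes it was -0.05, -0.0021 and 0.05. The TBX3iso1 and TBX3iso2 comparisons share the EV libraries. Over all genes the split of calls depended on the scaling: 955 higher and 1802 lower with TBX3iso1 became 1259 and 1313 after quantile normalization, and 444 higher and 361 lower between the isoforms became 344 and 447 after median-ratio scaling and 351 and 435 after quantile normalization.

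**Figure D2:**
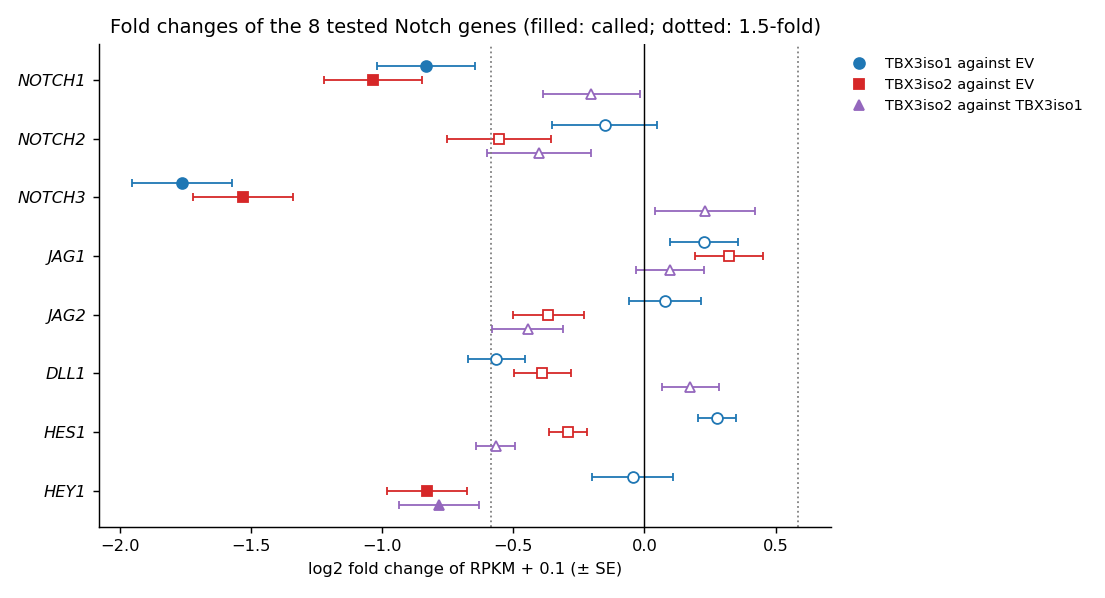
Log2 fold changes of RPKM + 0.1 (x axis, ± SE) of the 8 tested Notch genes in the 3 comparisons; filled symbols were called and dotted lines mark 1.5-fold. *NOTCH3* shows the longest fall, -1.76 with TBX3iso1 and -1.53 with TBX3iso2, while *HES1* lies at 0.28 with TBX3iso1 and at -0.29 with TBX3iso2.

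*NOTCH3* fell further than any other of the tested receptors, ligands and targets. *NOTCH3* (chr19:15269849-15311806, GRCh37, minus strand) encodes a receptor best known for its role in vascular smooth muscle, and it is also expressed in breast epithelium. Its level was 2.78 and 2.42 RPKM in EV, 0.792 and 0.606 RPKM with TBX3iso1 and 0.964 and 0.716 RPKM with TBX3iso2. All 4 isoform libraries lay under both EV libraries, at 0.269 and 0.323 times the EV mean, and the isoform lines overlapped. The log2 fold change was -1.76 ± 0.19 (SE) with TBX3iso1 (limma, adjusted p = 0.000339) and -1.53 ± 0.19 with TBX3iso2 (adjusted p = 0.00061), and the isoforms differed by 0.23 ± 0.19 (adjusted p = 0.459). At its canonical transcript length, the lowest library held about 264 *NOTCH3* reads and the highest about 1317. *ILVBL*, a tested gene 33252 bases away, was not called, with log2 fold changes of -0.17 with TBX3iso1 and -0.10 with TBX3iso2.

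*NOTCH1* fell with both isoforms. *NOTCH1* (chr9:139388885-139440500, minus strand) encodes the receptor through which much of the pathway's function in mammary progenitors has been described. EV libraries held 4.99 and 4.28 RPKM, TBX3iso1 libraries 2.94 and 2.21 RPKM and TBX3iso2 libraries 2.58 and 1.88 RPKM. Every isoform library lay below both EV libraries, while the isoforms overlapped each other. The log2 fold change was -0.83 ± 0.19 with TBX3iso1 (limma, adjusted p = 0.00902) and -1.04 ± 0.19 with TBX3iso2 (adjusted p = 0.00338), with a difference between the isoforms of -0.20 ± 0.19 (adjusted p = 0.514). The call with TBX3iso1 was lost without EV replicate 1 (-0.73, adjusted p = 0.0794), and both calls were lost in a linear model without moderation, with adjusted p = 0.11 for TBX3iso1 and adjusted p = 0.0756 for TBX3iso2 on the log2 scale.

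The nearest tested genes on both sides of *NOTCH1* were also called lower with both isoforms, as were 14.1% and 12.3% of all tested genes. *NALT1*, a long noncoding RNA gene on the opposite strand (chr9:139440664-139444345), begins 164 bases beyond the *NOTCH1* start, inside the window printed above. Its level was 2.9 and 3.68 RPKM in EV and between 0.673 and 0.757 RPKM in the 4 isoform libraries. At its canonical transcript length these were few reads, about 117 in each EV library and 22 to 28 in the isoform libraries. The *NALT1* log2 fold change was -2.06 ± 0.16 with TBX3iso1 (adjusted p = 7.26e-05) and -2.03 ± 0.16 with TBX3iso2 (adjusted p = 7.58e-05). *SEC16A*, the tested gene 10674 bases on the other side of *NOTCH1* and on the same strand, encodes a protein of the endoplasmic reticulum exit sites. Its level was 16.9 and 15.7 RPKM in EV, 8.91 and 7.45 RPKM with TBX3iso1 and 9.57 and 7.3 RPKM with TBX3iso2, a log2 fold change of -0.99 ± 0.14 (adjusted p = 0.0012) and -0.95 ± 0.14 (adjusted p = 0.00138). The canonical transcript of *SEC16A* measures 9018 bases, and the part of the length trend described below in its values was not tested. In GENCODE 44 *NOTCH1* overlaps neither *NALT1* nor *SEC16A*. The libraries were stranded, but the strand setting of the counting is not given. If strand was ignored, reads of genes that do overlap on opposite strands could not be told apart.

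*NOTCH2* was not called in any of the 3 comparisons. *NOTCH2* (chr1:120454176-120643366, minus strand) encodes the receptor that made up most of the receptor RPKM in every library. Its level was 19.3 and 17.9 RPKM in EV, 19.5 and 14.3 RPKM with TBX3iso1 and 15.4 and 10.3 RPKM with TBX3iso2. The TBX3iso1 libraries lay on both sides of EV, and both TBX3iso2 libraries lay below EV. The log2 fold change was -0.15 ± 0.20 with TBX3iso1 (limma, adjusted p = 0.556), which turned to 0.068 without TBX3iso1 replicate 2, and -0.55 ± 0.20 with TBX3iso2 (adjusted p = 0.0539), which became -0.84 and was called without TBX3iso2 replicate 1 (adjusted p = 0.00292) but was -0.27 without TBX3iso2 replicate 2 (adjusted p = 0.215). With the replicate block this value had an adjusted p = 0.00225 and was still short of 1.5-fold. The difference between the isoforms was -0.40 ± 0.20 (adjusted p = 0.22), and without TBX3iso2 replicate 1 it was -0.69 and called (adjusted p = 0.0237), while without TBX3iso2 replicate 2 it was -0.12 (adjusted p = 0.651). *NOTCH2* shares sequence with its partial copy *NOTCH2NL*, listed between 1.3 and 1.6 RPKM, and the study kept reads with up to 10 alignments, so its values are uncertain by the reads that the genes share.

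*NOTCH2* held 72% of the summed RPKM of the 3 receptors in EV (± 1.03 percentage points, SD, n = 2), 83.7% ± 0.258 with TBX3iso1 and 80.6% ± 0.999 with TBX3iso2. The share of *NOTCH1* was 17.9% ± 0.705 in EV, 12.8% ± 0.174 with TBX3iso1 and 14.1% ± 0.685 with TBX3iso2. The share of *NOTCH3* was 10.1% ± 0.323 in EV, 3.48% ± 0.0846 with TBX3iso1 and 5.31% ± 0.315 with TBX3iso2. These shares differed less between the replicates of a line than the levels did. For each of the 3 receptors the shares of the 3 lines did not overlap, and shares of 1 sum are not independent of each other. The receptor sum was 27.1 and 24.6 RPKM in EV, 23.2 and 17.1 RPKM with TBX3iso1 and 18.9 and 12.9 RPKM with TBX3iso2, each line lower in its second library. *NOTCH4*, the remaining receptor gene, had a mean of 0.0252 RPKM.

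**Figure D3:**
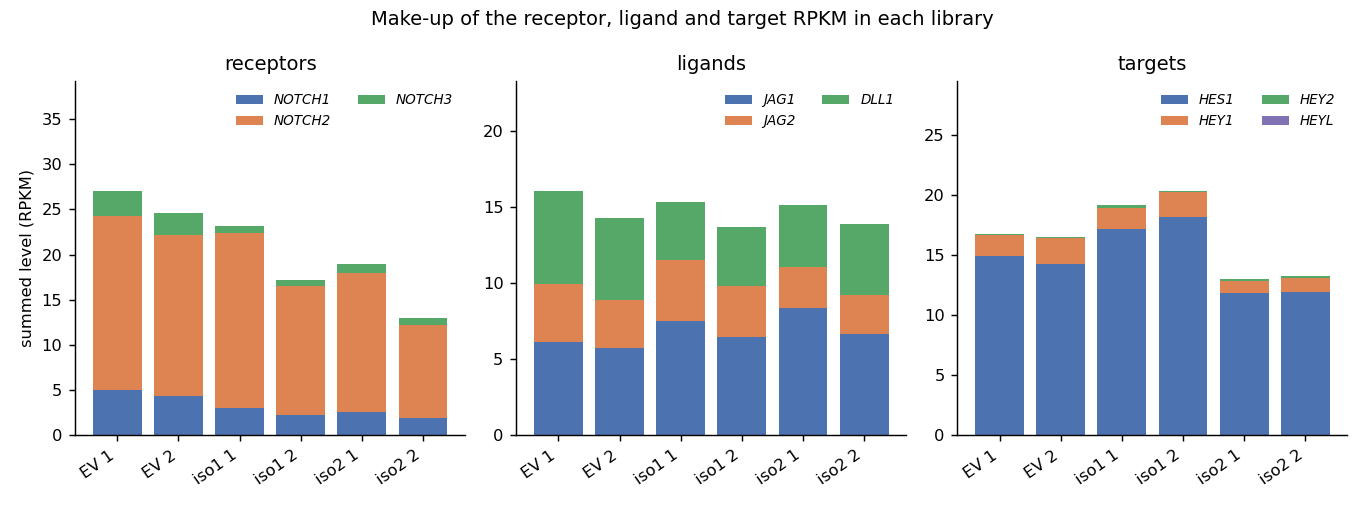
Summed RPKM (y axis, from 0) of the 3 receptors, 3 ligands and 4 targets in each of the 6 libraries, stacked by gene. *NOTCH2* makes up 71.3% to 83.9% of every receptor bar, the ligand bars stay between 13.7 and 16.1 RPKM, and *HES1* makes up 86.3% to 91.2% of the target bars.

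The 3 receptor transcripts are long, and long transcripts read lower in some of these libraries whatever the gene. The canonical transcripts of *NOTCH1*, *NOTCH2* and *NOTCH3* measure 9568, 11425 and 8680 bases. Over the 930 tested genes with a transcript over 8 kb, the median log2 difference from the EV mean was -0.16 and -0.34 in the TBX3iso1 libraries and -0.04 and -0.33 in the TBX3iso2 libraries, and the second library of both lines was also raised by 0.23 and 0.21 for genes under 1 kb. Among these 930 long genes 17.7% were called lower with TBX3iso1 and 14.1% with TBX3iso2. With the length trend removed from each library, an alternative chosen after seeing the data, *NOTCH3* stayed at -1.55 (adjusted p = 2.62e-05) and -1.39 (adjusted p = 4.69e-05) and *NOTCH1* at -0.60 (adjusted p = 0.00192) and -0.87 (adjusted p = 0.000254), all 4 still called. *NOTCH2* became 0.11 with TBX3iso1 and -0.37 with TBX3iso2, neither called.

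**Figure D4:**
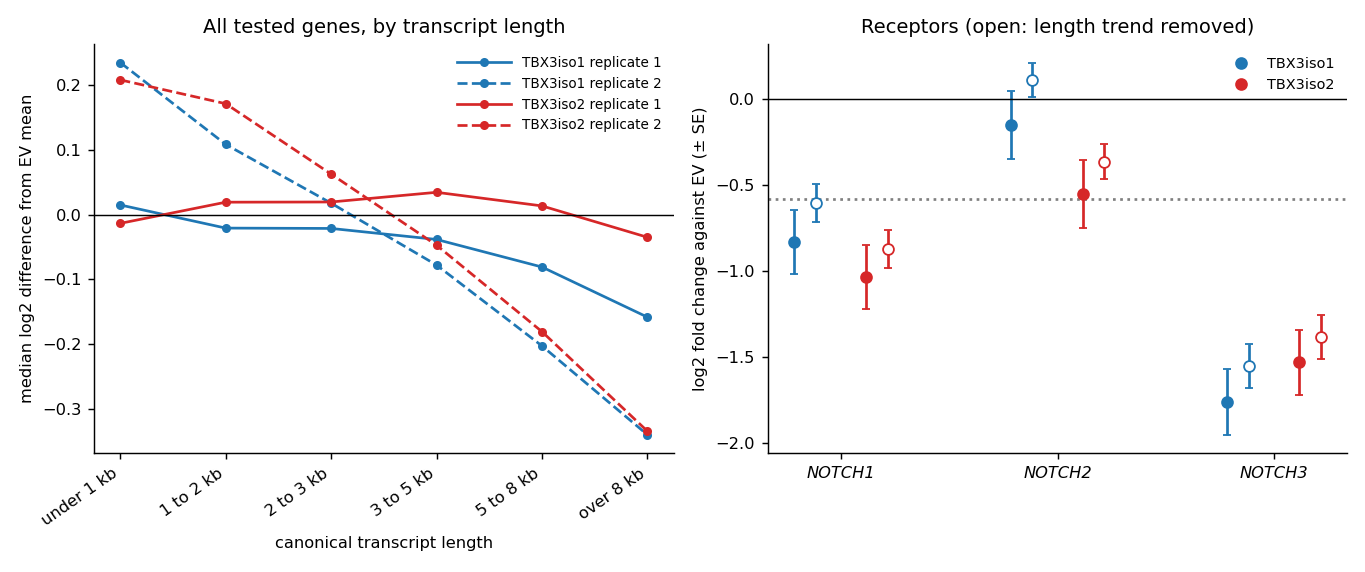
Left, median log2 difference from the EV mean (y axis) of all tested genes by canonical transcript length (x axis) in the 4 isoform libraries. Right, log2 fold changes against EV (± SE) of the receptors before (filled) and after (open) removal of the length trend, with 1.5-fold dotted: *NOTCH3* moved from -1.76 to -1.55 with TBX3iso1 and *NOTCH2* from -0.15 to 0.11.

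None of the 3 ligands was called in any comparison. *DLL1*, a Delta-like ligand that marks some mammary stem cells in the mouse, came closest: its level was 6.13 and 5.42 RPKM in EV, 3.83 and 3.91 RPKM with TBX3iso1 and 4.1 and 4.67 RPKM with TBX3iso2. Both isoform lines lay below EV without overlap, and TBX3iso1 lay below TBX3iso2. Its log2 fold change was -0.56 ± 0.11 with TBX3iso1 (limma, adjusted p = 0.00465) and -0.39 ± 0.11 with TBX3iso2 (adjusted p = 0.0213), both short of 1.5-fold. Without EV replicate 2 the TBX3iso1 value was -0.65 and was called (adjusted p = 0.0225), and without EV replicate 1 it was -0.48 (adjusted p = 0.0548). *DLL1* (chr6:170591294-170615653, minus strand) overlaps *FAM120B* on the other strand in the annotation.

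*JAG1* and *JAG2*, the Jagged ligands, differed in the sign of their values with TBX3iso2. *JAG1* was listed at 6.11 and 5.73 RPKM in EV, 7.49 and 6.43 RPKM with TBX3iso1 and 8.34 and 6.62 RPKM with TBX3iso2. Both isoform lines were above EV without overlap, with a log2 fold change of 0.23 ± 0.13 (limma, adjusted p = 0.189) and 0.32 ± 0.13 (adjusted p = 0.0763). With a library left out these values ran from 0.12 to 0.33 and from 0.16 to 0.49, lowest without the first library of the isoform line. *JAG2* was listed at 3.83 and 3.15 RPKM in EV, 4.04 and 3.34 RPKM with TBX3iso1 and 2.73 and 2.62 RPKM with TBX3iso2. TBX3iso1 overlapped EV at 0.08 ± 0.14 (adjusted p = 0.662), and TBX3iso2 lay below both other lines, at -0.37 ± 0.14 against EV (adjusted p = 0.0602) and -0.44 ± 0.14 against TBX3iso1 (adjusted p = 0.0691). After removal of the length trend *JAG1* was at 0.36 with TBX3iso1 (limma, adjusted p = 0.0048) and 0.41 with TBX3iso2 (adjusted p = 0.00261). *JAG2* was then at 0.21 with TBX3iso1 (adjusted p = 0.131), -0.29 with TBX3iso2 (adjusted p = 0.0494) and -0.50 between the isoforms (adjusted p = 0.0111). All of these were short of 1.5-fold. *JAG1* lies at chr20:10618332-10654647 and *JAG2* at chr14:105607319-105635161, both on the minus strand.

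The 3 ligands summed to 15.2 ± 1.25 RPKM in EV cells, to 14.5 ± 1.18 RPKM with TBX3iso1 and to 14.5 ± 0.884 RPKM with TBX3iso2, less apart than the replicates of a line. Within that sum *DLL1* held 38% ± 0.185 in EV, 26.7% ± 2.57 with TBX3iso1 and 30.3% ± 4.63 with TBX3iso2, and *JAG1* held 39% ± 1.43, 47.9% ± 1.24 and 51.3% ± 5.24. The remaining Delta-like ligands *DLL3* and *DLL4* were listed at means of 0.387 and 0.201 RPKM and were not tested.

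*HEY1* fell with TBX3iso2 and was not called with TBX3iso1. *HEY1*, on chromosome 8, encodes a repressor that Notch signals switch on in many tissues, the vessel wall among them. Its level was 1.8 and 2.2 RPKM in EV, 1.8 and 2.06 RPKM with TBX3iso1 and 1 and 1.16 RPKM with TBX3iso2. The TBX3iso2 libraries lay below the other 4, which overlapped. The log2 fold change was -0.83 ± 0.15 with TBX3iso2 (limma, adjusted p = 0.00372) and -0.05 ± 0.15 with TBX3iso1 (adjusted p = 0.827), a value that turned to 0.0063 with median-ratio scaling and to 0.17 with quantile normalization. The isoforms themselves differed by -0.78 ± 0.15 (adjusted p = 0.0154).

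*HEY1* is a low transcript, with about 110 reads in the lowest library and 228 in the highest at its canonical length, and its calls depended on the settings. With a pseudocount of 1 RPKM both calls were lost, at -0.53 against EV and -0.49 between the isoforms. The call between the isoforms was also lost without TBX3iso1 replicate 2 (-0.69, adjusted p = 0.0728) and with no filter on low values (adjusted p = 0.0598), and both were lost in the linear model without moderation on log2 values (adjusted p = 0.0511 and 0.114). The tested genes nearest to *HEY1* were far from it, *ZC2HC1A* at 1042606 bases and *MRPS28* at 150860 bases. Neither was called, and their values had the other sign, 0.26 and 0.43 with TBX3iso2.

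*HES1* lay on opposite sides of EV in the isoform lines. *HES1* (chr3:193853937-193856521, plus strand) encodes the repressor most often used as a readout of Notch signalling, although other pathways also set its level. It was listed at 14.9 and 14.2 RPKM in EV, 17.1 and 18.2 RPKM with TBX3iso1 and 11.8 and 11.9 RPKM with TBX3iso2. The 3 lines did not overlap. The log2 fold change was 0.28 ± 0.07 with TBX3iso1 (limma, adjusted p = 0.0187) and -0.29 ± 0.07 with TBX3iso2 (adjusted p = 0.0149), neither past 1.5-fold. Without EV replicate 1 or 2 the adjusted p of these values was 0.0787 and 0.142 with TBX3iso1 and 0.121 and 0.0693 with TBX3iso2, and without TBX3iso1 replicate 2 it was 0.12 with TBX3iso1. TBX3iso2 against TBX3iso1 gave -0.57 ± 0.07 (adjusted p = 0.00327), a ratio of 0.675 just short of 1.5-fold, and the difference was called with median-ratio scaling (-0.62), quantile normalization (-0.61), the length trend removed (-0.62) or TBX3iso1 replicate 1 left out (-0.61). It was not called under the other alternatives, and the unlogged model without moderation gave an adjusted p = 0.0513.

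*HEY2* and *HEYL*, the other HEY genes, were too low to be tested. *HEY2* (chr6:126068810-126082415, plus strand), a regulator of heart development, was listed at 0.0761 and 0.0429 RPKM in EV, 0.202 and 0.0849 RPKM with TBX3iso1 and 0.137 and 0.152 RPKM with TBX3iso2. The 4 isoform libraries lay above EV, on about 5 to 27 reads in each of the 6 libraries, and with no filter on low values the log2 fold change was 0.57 (limma, adjusted p = 0.179) and 0.62 (adjusted p = 0.154). *HEYL* (chr1:40089107-40105315, minus strand) was listed at 0.0055 and 0.007 RPKM in EV, at 0 and 0.0123 RPKM with TBX3iso1 and at 0.0118 and 0 RPKM with TBX3iso2. Scaled by the alignments, these values were 1, 1, 0, 2, 2 and 0 times the smallest one to within 0.0547, and a difference was not detectable at this depth.

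Other genes of the pathway, 59 in 8 lists by role, were read beside the 10 genes, and 52 of them were tested. With TBX3iso1 9 were called lower and 2 higher, 21.2% of those tested, and with TBX3iso2 10 lower and 4 higher, 26.9%, against 21.5% and 21.2% of all genes, so the shares lay near the background. Between the isoforms 1 was called higher and 1 lower, 3.85% of those tested, beside 6.29% of all genes. The median log2 fold change of the 52 was -0.24 with TBX3iso1, -0.18 with TBX3iso2 and 0.07 between the isoforms. Over all tested genes it was -0.05, -0.0021 and 0.05. Some of the 52 have long transcripts, such as *EP300* with 8779 bases and *CREBBP* with 10790, and the part of the length trend in these medians was not tested. After removal of that trend 10, 14 and 2 other pathway genes were called in the 3 comparisons.

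**Figure D5:**
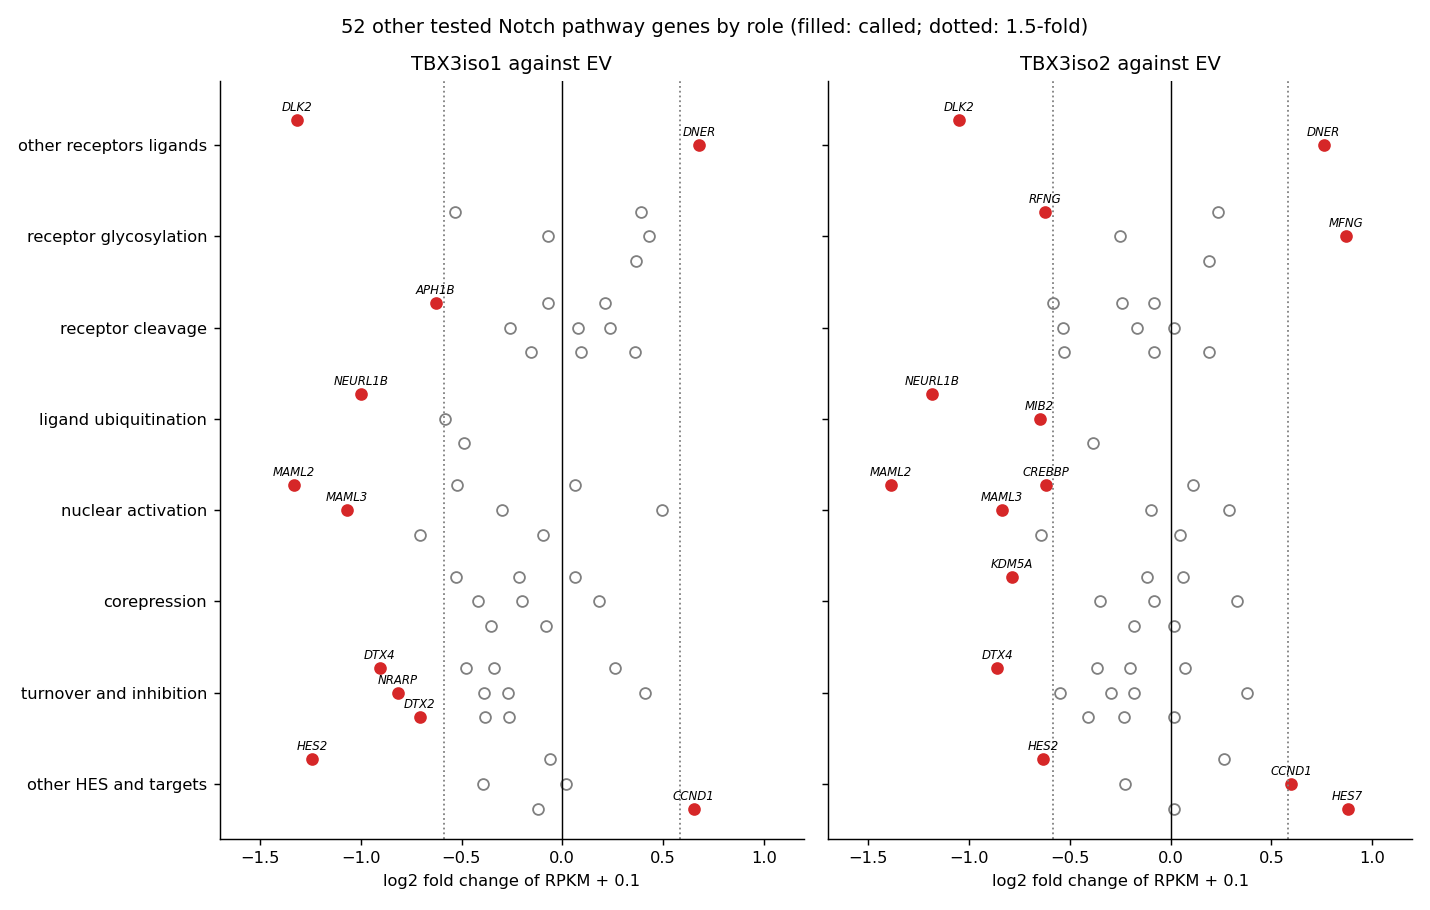
Log2 fold changes of RPKM + 0.1 (x axis) of the 52 other tested pathway genes, each a point, by role (y axis; the offset within a row only separates points), with TBX3iso1 on the left and TBX3iso2 on the right. Filled points were called and are named: *MAML2* lies at -1.33 and -1.39, and *DNER* at 0.68 and 0.76.

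Among other receptors and ligands both tested genes were called with both isoforms, where 21.5% and 21.2% of all tested genes were called. *DLK2*, a Delta-like protein thought to hold Notch signalling back, was listed at 22.8 and 21.4 RPKM in EV, 8.77 and 8.88 RPKM with TBX3iso1 and 9.79 and 11.5 RPKM with TBX3iso2, and fell by 1.32 and 1.05 on the log2 scale (limma, adjusted p = 5.61e-05 and 0.000153). *DNER*, a transmembrane protein with Delta-like EGF repeats, was listed at 4.39 and 4.05 RPKM in EV, 6.69 and 6.92 RPKM with TBX3iso1 and 7.32 and 7.08 RPKM with TBX3iso2. *DNER* rose by 0.68 and 0.76 (adjusted p = 0.000779 and 0.000446).

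Of 17 tested genes that act on receptors and ligands before signalling, 2 were called with TBX3iso1 (11.8%) and 4 with TBX3iso2 (23.5%), beside 21.5% and 21.2% of all genes. Of 5 genes for receptor glycosylation none was called with TBX3iso1, and with TBX3iso2 *MFNG* rose (0.87, limma, adjusted p = 0.0148) and *RFNG* fell (-0.62, adjusted p = 0.00632), both fringe sugar transferases. Of 9 genes for receptor cleavage, *APH1B*, a gamma-secretase subunit, was called with TBX3iso1 (-0.63, adjusted p = 0.00273) and none with TBX3iso2, and *APH1B* was no longer called after the length trend was removed (-0.56). *ADAM10* and *ADAM17*, the proteases of the first cut, had values of -0.26 and -0.15 with TBX3iso1 and of -0.53 and -0.58 with TBX3iso2. With the length trend removed, *ADAM10* was at -0.0037 and -0.35 and *ADAM17* at -0.08 and -0.55, none called. Of 3 tested ligases that act on ligands, *NEURL1B* fell with both isoforms, by 1 and 1.19 on the log2 scale (adjusted p = 0.00172 and 0.000756), and *MIB2* with TBX3iso2 (-0.65, adjusted p = 0.015).

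Of 8 genes for nuclear activation 2 were called with TBX3iso1 (25%) and 3 with TBX3iso2 (37.5%), all lower. Over all tested genes 21.5% and 21.2% were called, and 14.1% and 12.3% were called lower. The Mastermind-like coactivators *MAML2* and *MAML3* fell with both isoforms. *MAML2* was listed at 4 RPKM in both EV libraries, 1.71 and 1.36 RPKM with TBX3iso1 and 1.96 and 1.09 RPKM with TBX3iso2, a log2 difference of -1.33 ± 0.24 and -1.39 ± 0.24 (limma, adjusted p = 0.00376 and 0.00299). *MAML3* was listed at 1.34 RPKM in both EV libraries, 0.601 and 0.573 RPKM with TBX3iso1 and 0.8 and 0.622 RPKM with TBX3iso2, with -1.07 ± 0.16 and -0.84 ± 0.16 (adjusted p = 0.00166 and 0.00482). *CREBBP*, a histone acetyltransferase, was called with TBX3iso2 (-0.62, adjusted p = 0.0419) and was not after the length trend was removed (-0.44). *MAML1*, the most abundant Mastermind-like gene with 6.43 and 5.93 RPKM in EV, was not called, at -0.09 ± 0.16 and 0.05 ± 0.16 (adjusted p = 0.647 and 0.835). *RBPJ*, the DNA-binding partner, was at -0.30 and -0.10 (adjusted p = 0.0715 and 0.522).

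Of 8 corepressor genes, *KDM5A*, a histone demethylase, was the only one called, lower with TBX3iso2 against EV (-0.79, limma, adjusted p = 0.00471) and against TBX3iso1 (-0.59, adjusted p = 0.0406). That was 12.5% of the list in each of these comparisons, beside 21.2% and 6.29% of all tested genes. Of 11 tested genes for turnover and inhibition 3 were called with TBX3iso1 (27.3%) and 1 with TBX3iso2 (9.09%), beside 21.5% and 21.2% of all tested genes. *DTX4* fell with both isoforms (-0.91 and -0.86, adjusted p = 0.000285 and 0.000336). *DTX2*, like *DTX4* a Deltex ubiquitin ligase, fell with TBX3iso1 (-0.71, adjusted p = 0.000304) and was at -0.41 with TBX3iso2. *NRARP*, a feedback inhibitor that Notch itself switches on, was listed at 4.66 and 4.08 RPKM in EV, 2.34 and 2.54 RPKM with TBX3iso1 and 2.71 and 3.2 RPKM with TBX3iso2. *NRARP* was called with TBX3iso1 (-0.81 ± 0.13, adjusted p = 0.00174) and at -0.55 ± 0.13 was short of 1.5-fold with TBX3iso2 (adjusted p = 0.00958), where it was called after the length trend was removed (-0.59, adjusted p = 0.00173).

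Among further HES genes and targets, 6 of 7 were tested. Of these 6, 2 were called with TBX3iso1 (33.3%), 3 with TBX3iso2 (50%) and 1 between the isoforms (16.7%). Over all tested genes the shares were 21.5%, 21.2% and 6.29%. *HES2* fell with both isoforms (-1.24 and -0.63, limma, adjusted p = 0.00106 and 0.0196). *HES7*, a gene known from the segmentation clock, was listed at 2.86 and 2.52 RPKM in EV, 2.46 and 2.47 RPKM with TBX3iso1 and 4.58 and 5.5 RPKM with TBX3iso2, and rose with TBX3iso2 against EV (0.88 ± 0.12, adjusted p = 0.00114) and against TBX3iso1 (1.00 ± 0.12, adjusted p = 0.00282). *CCND1*, which encodes cyclin D1 and has many inputs beside Notch, rose with both isoforms, from 46.4 and 43.4 RPKM in EV to between 66.5 and 72 RPKM (0.65 and 0.60, adjusted p = 0.000449 and 0.000619). *MYC*, at a mean of 75.4 RPKM, was at -0.06 and 0.02 and was not called.

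Some pathway calls were lost when a library was left out, which also leaves fewer libraries to estimate the spread. The 11 calls of other pathway genes with TBX3iso1 against EV held with each of the 6 libraries left out in turn. Of the TBX3iso2 calls against EV, those of *MFNG* (log2 fold change 0.66 to 1.08), *MIB2* (-0.91 to -0.39) and *CREBBP* (-0.94 to -0.30) were each lost in 3 of the 6 cases, the EV replicates among them. Those of *RFNG* (-0.81 to -0.43), *KDM5A* (-1.01 to -0.56), *HES2* (-0.67 to -0.60) and *CCND1* (0.55 to 0.65) were each lost in 2, without EV replicate 2 and 1 other library. For *HES2* the fold change stayed past 1.5-fold in each case. The *KDM5A* call between the isoforms was lost in 5 of the 6 cases (-0.81 to -0.37) and held without TBX3iso2 replicate 1. The EV replicates were among the 5, although they enter that comparison only through the shared spread. The *HES7* call between the isoforms held in all 6.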

How the data were processed

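The authors prepared stranded mRNA libraries (Illumina TruSeq), sequenced paired-end reads, aligned them with TopHat in Galaxy to hg19, keeping up to 10 alignments per read, and deposited RPKM values from Partek Genomics Suite with the number of alignments per library. Software versions, gene annotation and strand setting are not given in the sources used here. Groups follow the sample titles (EV, TBX3iso1, TBX3iso2, 2 libraries each), and 0 columns of the table were left unused.

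A pseudocount of 0.1 RPKM was added before the log2 step. The 12805 genes whose mean reached 0.5 RPKM were fitted with limma 3.58.1 in R 4.3.3 over all 6 libraries, with 1 mean per line and a variance trend, and p-values were adjusted by Benjamini-Hochberg across them. The fit was tested on simulated data. With 2 libraries per line an exact permutation test cannot reach 0.05 and none was run. Reads per gene are approximate, from RPKM, the alignments and the canonical transcript (GENCODE 44 on GRCh37), whose length was found for 91.2% of tested genes; interval estimates from counts were not made.

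Replicate differences of the lines were compared across the tested genes: their correlation was 0.22 for EV and TBX3iso1, 0.114 for EV and TBX3iso2 and 0.499 for the isoforms, each over 0.1, so the replicate numbers were taken to pair the libraries, from the data alone. The fit described above does not use this pairing, which enters only as the replicate block among the alternatives. The second libraries of both isoform lines shared the length trend described above, and its part in these correlations was not tested.

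The 10 genes and the other pathway lists were chosen with earlier results of these data known. Named are all 10 genes, pathway genes called in at least 1 comparison, TBX3, and the nearest tested neighbours of called genes, of which not all are reported here; the other pathway genes and marker genes with values (ADAM10, ADAM17, MAML1, RBPJ, MYC, NCSTN, CCNC, APH1A, FURIN, CTBP2, ITCH, CDH1, KRT7, KRT18, KRT19, ESRP1, EPCAM, NOTCH4, DLL3, DLL4, PECAM1, CD14, COL1A1, CD68, PTPRC, CD3E) and NOTCH2NL were named after their values were seen. Alternatives were other pseudocounts, filters and scalings, only the lines compared, a replicate block, no trend, unmoderated models, leaving out each library and removal of the length trend. Promoter windows are from RefSeq.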

Additional observations from a re-analysis of the deposited data

Results flagged for a closer look

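For 12 genes, namely 2 of the 8 tested Notch genes, 9 of the 52 other tested pathway genes and *TBX3*, the effects of the isoforms differed by the test of TBX3iso2 against TBX3iso1 at an adjusted p under 0.05 (limma). At the same threshold 1891 of all 12805 tested genes (14.8%) differed between the isoforms. *HES1* differed by -0.57 (adjusted p = 0.00327) and lay above EV in both TBX3iso1 libraries and below it in both TBX3iso2 libraries. *HEY1* differed by -0.78 (adjusted p = 0.0154), with both TBX3iso2 libraries below the other 4. *KDM5A* differed by -0.59 (adjusted p = 0.0406) and *DTX2* by 0.30 (adjusted p = 0.0367). *HES7* differed by 1.00 (adjusted p = 0.00282), with both TBX3iso2 libraries above the other 4. *NCSTN*, a gamma-secretase subunit, differed by -0.53 (adjusted p = 0.00632), at 0.36 with TBX3iso1 and -0.17 with TBX3iso2 against EV. *CCNC* differed by -0.39 (adjusted p = 0.0155), *APH1A* by -0.32 (adjusted p = 0.0363), *FURIN* by -0.33 (adjusted p = 0.0402), *CTBP2* by 0.27 (adjusted p = 0.0426) and *ITCH* by 0.34 (adjusted p = 0.0452). *TBX3* differed by 0.43 (adjusted p = 0.0275), higher with TBX3iso2.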

How the results depend on the processing

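Of 426 recomputed fold changes of the 8 tested genes, 395 kept their direction and call. That count is no measure of robustness, since most of these values were not called in the main fit. The filters, the lines compared, the replicate block, the trend and the log2 model without moderation also cannot change a log2 fold change, only its call. *NOTCH3* was called against EV wherever it was tested (log2 fold change -1.93 to -1.08 with TBX3iso1 and -1.72 to -0.97 with TBX3iso2). The number of the 10 genes called with TBX3iso1 (2) was 1 with a filter at a mean of 2 RPKM, which removes *NOTCH3* and *HEY1*, 1 in either linear model without moderation, and 1 to 3 with a library left out. With TBX3iso2 (3) it was 1 under the same 3 settings, and 3 to 4 with a library left out. Between the isoforms (1) it was 0 with a pseudocount of 1 RPKM, no filter, the filter at 2 RPKM and either model without moderation, 2 with median-ratio scaling, quantile normalization or the length trend removed, and 0 to 2 with a library left out.

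The other pathway genes called with TBX3iso2 (14) numbered 8 with a pseudocount of 1 RPKM, 7 (log2 scale) and 9 (unlogged) without moderation, and 8 to 16 with a library left out, lowest without EV replicate 2. Between the isoforms (2) they numbered 1 with a pseudocount of 1 RPKM, no filter or only the lines compared, 0 in either model without moderation, and 1 to 4 with a library left out. Over all genes, a pseudocount of 1 RPKM called 1812 with TBX3iso1 instead of 2757 and 419 between the isoforms instead of 805, where the filter at 2 RPKM called 504 and the models without moderation 199 and 176.

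Values that changed sign, none of them called, were *NOTCH2* with TBX3iso1 (-0.37 to 0.068 with a library left out, above 0 without TBX3iso1 replicate 2, and 0.11 with the length trend removed), *HEY1* with TBX3iso1 (0.0063 with median-ratio scaling, 0.17 with quantile normalization, and -0.18 to 0.094 with a library left out, above 0 without EV replicate 2 or TBX3iso1 replicate 1), *JAG2* with TBX3iso1 (-0.057 to 0.21, below 0 without EV replicate 2 or TBX3iso1 replicate 1) and, between the isoforms, *NOTCH1* (-0.42 to 0.014, above 0 without TBX3iso2 replicate 2) and *JAG1* (-0.067 to 0.26, below 0 without TBX3iso1 replicate 2 or TBX3iso2 replicate 1). The cause was not tested. With the replicate block, 2, 3 and 1 of the 10 genes were called in the 3 comparisons, and the block changed no call of these genes. Short of 1.5-fold, the adjusted p (limma) fell under 0.05 for *NOTCH2* with TBX3iso2 (0.00225) and between the isoforms (0.0248). It also did so for *JAG1* with TBX3iso1 (0.0496) and TBX3iso2 (0.0116) and for *JAG2* with TBX3iso2 (0.0145) and between the isoforms (0.015). With the block 12, 15 and 3 other pathway genes were called. Counts per gene were not used, so the precision that depth gives to low genes is known only roughly.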
